A study of Mus musculus with 48 samples.

Results

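The genes described here make, place, modify or remove the histone variant H2A.Z. They are H2afv, Anp32e, Vps72, Yeats4, Dmap1 and Kat5, taken by name from the 4 deposited gene tables of a study of mouse cerebellum, and are 6 of the 6143 distinct genes that these tables list. Messenger RNA was sequenced from cerebella at postnatal days 27 to 28, with 4 libraries from mice with a conditional knockout of Chd4 (cKO) and 4 from wild-type (WT) mice. A second set held 4 libraries from mice trained on the rotarod, a turning rod on which a mouse learns to balance, and 4 from mice kept at rest in the home cage, all of wild-type genotype. The labels used here name no Cre line for the knockout, so the cells that lost Chd4 are not given, and every library is whole cerebellum. In such tissue, fewer cells of a type and less RNA per cell cannot be told apart. Of the 48 samples of the series, 16 are these messenger RNA samples, 20 are chromatin samples of postnatal day 22, which were not analysed here, and 12 are Sync-TRAP samples (ribosome-bound RNA and its input) of postnatal day 12, taken 6 days after electroporation, with 3 pull-down and 3 input samples of each genotype.

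H2A.Z replaces the ordinary histone H2A in a part of the nucleosomes, mostly around gene starts and enhancers, and mammals make it from a pair of genes, H2afz and H2afv. The SRCAP and TIP60-EP400 complexes exchange H2A.Z into nucleosomes, TIP60-EP400 can also acetylate it, and the chaperone ANP32E takes it out. In neurons, H2A.Z is known for its place at genes that respond to activity, and CHD4 is the ATPase of the nucleosome remodelling and deacetylase complex NuRD.

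The promoters of 5 of the 6 members were in the RefSeq table of build GRCm38.p6, with 6 gene starts in all, since Kat5 has 2; for Vps72 only the name is given. Shown here are the 250 bases before the start of Anp32e and H2afv, the chaperone and the variant that it removes, which were listed in opposite directions in the knockout, and of Dmap1 and Kat5, the pair listed as lower after training. Anp32e is at chr3:95929007-95929256 on the plus strand, H2afv (H2az2 in RefSeq) at chr11:6444444-6444693 on the minus strand, Dmap1 at chr4:117682226-117682475 on the minus strand, and the farther upstream of the Kat5 starts at chr19:5610095-5610344 on the minus strand. Each is written 5′ to 3′ towards the gene, with capitals where a searched motif matched on either strand.
Anp32e: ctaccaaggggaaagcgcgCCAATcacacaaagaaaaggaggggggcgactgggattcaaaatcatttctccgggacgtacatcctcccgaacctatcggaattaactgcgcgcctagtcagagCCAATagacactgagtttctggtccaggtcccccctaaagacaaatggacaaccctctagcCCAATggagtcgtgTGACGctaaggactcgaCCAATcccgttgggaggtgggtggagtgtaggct
H2afv: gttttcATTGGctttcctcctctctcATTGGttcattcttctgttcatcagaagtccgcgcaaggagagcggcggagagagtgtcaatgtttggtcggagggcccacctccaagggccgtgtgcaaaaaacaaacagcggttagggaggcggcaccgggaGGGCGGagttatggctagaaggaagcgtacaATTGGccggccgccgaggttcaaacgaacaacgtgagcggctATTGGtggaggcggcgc
Dmap1: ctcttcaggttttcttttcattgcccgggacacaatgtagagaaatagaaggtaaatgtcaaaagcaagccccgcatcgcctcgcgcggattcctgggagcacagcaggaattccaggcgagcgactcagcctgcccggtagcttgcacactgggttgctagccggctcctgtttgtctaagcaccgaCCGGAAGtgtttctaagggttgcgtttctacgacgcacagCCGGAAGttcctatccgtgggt
Kat5: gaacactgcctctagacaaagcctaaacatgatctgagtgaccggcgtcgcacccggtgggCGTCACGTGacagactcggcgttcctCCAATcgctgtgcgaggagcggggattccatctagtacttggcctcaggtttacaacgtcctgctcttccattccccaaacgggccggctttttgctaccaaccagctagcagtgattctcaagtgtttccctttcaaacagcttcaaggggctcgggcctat

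The motifs searched were TATAAA (the TATA box), CCAAT (bound by the factor NF-Y), GGGCGG (the GC box), CCGGAAG (bound by ETS factors), TGACG (a part of the cAMP response element), CACGTG (the E-box), AAGATGGC (bound by YY1) and TGCGCA (the core of the NRF1 site). The Anp32e window held 4 CCAAT matches, at 231, 126, 65 and 34 bases before the start, and 1 TGACG match. The H2afv window also held 4 CCAAT matches, all in the reverse orientation (ATTGG), at 244, 224, 59 and 17 bases, and 1 GC box. At least 1 CCAAT match was present in 33.85% of the 32851 mouse gene starts in the table, and a GC box in 32.74%. Dmap1 held no CCAAT match and 2 ETS motifs, at 62 and 22 bases, a motif present in 6.91% of starts. In the printed Kat5 window, 1 E-box overlapped 1 reverse TGACG match, and a CCAAT match stood 163 bases before the start. The other Kat5 start, at chr19:5609745-5609994, had 3 GC boxes and 1 TGACG match, and Yeats4 (chr10:117224508-117224757, minus strand) had 2 NRF1 cores, at 36 and 12 bases, and 1 CCAAT match. E-boxes were present in 6.02% of starts, TGACG in 17.77% and NRF1 cores in 6.43%. TATAAA, found in 12.37% of starts, and AAGATGGC, found in 1.56%, had no match in the 6 windows. Neither window of Kat5 shared a motif with that of Dmap1. Such matches describe the letters of these windows and nothing of what binds there.

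The deposited values are log2 CPM, the log2 of a gene's reads per M reads of the library after the authors' scaling, and a gene is in a table because the authors' test there gave an adjusted p under 0.05. Every member therefore passed that test where it is listed, and a gene that is not listed has no value here. From the deposited values the effective depth was 13.7 to 15.6 M reads in the 8 cKO and WT libraries and 13.7 to 16.7 M in the 8 rotarod and rest libraries. Below, "rose" and "fell" are kept for members that also passed limma with an adjusted p under 0.05. Limma and the exact permutation test given below used the same libraries as the authors' test, so neither is separate support. Chd4 itself fell to 73.9% of its WT level in cKO (7.94 ± 0.08 log2 CPM in cKO and 8.38 ± 0.06 in WT, SD, n = 4 each; limma adjusted p = 0.00199), which is a change over the whole gene and the whole tissue.

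The comparison of cKO with WT asks which genes depend on the remodeller Chd4, and 4 members were listed in it. The chaperone gene Anp32e and the exchange-complex gene Vps72 fell by 0.38 and 0.26 on the log2 scale, and Yeats4, a subunit of the same complexes as Vps72, rose by 0.26. The variant gene H2afv was listed as higher in the authors' deposited table and did not pass limma. The members were thus split, with 2 listed as lower and 2 as higher. The table lists 11.0% of about 27100 features as higher and 9.29% as lower, and 13.2% passed limma in either direction. Of the 5508 listed genes, which the authors' test selected on the same libraries, 3579 passed limma. Their unadjusted limma p was under 0.05 in 95.2%.

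H2afv (ENSMUSG00000041126) encodes H2A.Z.2, which differs from H2A.Z.1 in a few residues. Its level was 5.10, 5.29, 5.28 and 5.27 log2 CPM in cKO libraries 1 to 4, from 468 to 597 reads. In WT libraries 1 to 4 it was 5.10, 5.05, 4.90 and 4.996 log2 CPM, from 457 to 515 reads. The cKO libraries 2, 3 and 4 lay above every WT library, and cKO library 1 lay among the WT values, just under WT library 1, so the groups overlapped. The means were 5.24 ± 0.09 log2 CPM in cKO and 5.01 ± 0.08 in WT (SD, n = 4 each), a difference of 0.22 ± 0.07 (SE), with a 95% interval of 0.07 to 0.38, or 116.7% of the WT level. Limma's adjusted p was 0.0691 and the exact two-sided permutation p over the 8 libraries was 0.0571, where 0.0286 is the smallest p that 4 against 4 can give. In the authors' deposited table the log2 fold change was 0.22 with an adjusted p of 0.017. Of 8 fits that left out 1 library, only 1 passed limma, that without cKO library 1 (0.27, adjusted p = 0.0356). The differences in these fits were 0.19 to 0.27, with limma adjusted p up to 0.179. H2afz, which encodes H2A.Z.1 and resembles H2afv in its coding sequence, was not listed and has no value here, and how reads shared by such related genes were assigned is not given in the sources used here.

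Anp32e (ENSMUSG00000015749) encodes the chaperone that removes H2A.Z from nucleosomes. It held 5.92, 6.11, 5.96 and 5.95 log2 CPM in cKO libraries 1 to 4, from 829 to 1024 reads, and 6.45, 6.45, 6.31 and 6.28 log2 CPM in WT libraries 1 to 4, from 1140 to 1312 reads. All 4 cKO libraries lay below all 4 WT libraries, and the nearest cKO and WT libraries were 0.16 apart. Groups without overlap were found for 78.0% of the 5508 listed genes, so this separation is common in the table. Anp32e averaged 5.99 ± 0.09 log2 CPM in cKO and 6.37 ± 0.09 in WT (SD, n = 4 each). Anp32e mRNA thus fell by 0.38 ± 0.07 (log2), reaching 76.6% of the WT level (95% interval of the difference -0.54 to -0.23, limma adjusted p = 0.00664, exact permutation p = 0.0286). It stood 911th by size among the 2518 genes listed as lower, whose median difference was -0.32. The call held in all 8 fits that left out 1 library, with differences of -0.43 to -0.36.

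Vps72 (ENSMUSG00000008958) encodes YL1, the subunit of SRCAP and TIP60-EP400 that binds H2A.Z in human cells. Its level in cKO libraries 1 to 4 was 4.96, 4.78, 4.69 and 4.90 log2 CPM, from 357 to 459 reads, against 5.13, 5.07, 5.07 and 5.09 log2 CPM in WT libraries 1 to 4, from 465 to 526 reads. The groups did not overlap, and the cKO libraries were spread more widely than the WT libraries, with an SD of 0.12 in cKO and 0.03 in WT. Counting error alone gives an SD near 0.07 per cKO library and 0.06 per WT library at these read numbers, so the WT spread was below counting error and the cKO spread above it. With means of 4.83 ± 0.12 log2 CPM in cKO and 5.09 ± 0.03 in WT (SD, n = 4 each), Vps72 fell by 0.26 ± 0.07 (log2), reaching 83.5% of the WT level (95% interval -0.41 to -0.11, limma adjusted p = 0.0364, exact permutation p = 0.0286). Its call was lost in 7 of 8 fits that left out 1 library, with differences of -0.30 to -0.21 and adjusted p of 0.0259 to 0.1, and held without cKO library 1.

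Yeats4 (ENSMUSG00000020171) encodes GAS41, which binds acetylated histone tails through its YEATS domain and belongs to the same pair of complexes. Libraries 1 to 4 of cKO held 4.59, 4.62, 4.72 and 4.64 log2 CPM, from 329 to 383 reads, and those of WT held 4.41, 4.44, 4.41 and 4.26 log2 CPM, from 280 to 329 reads. All cKO libraries lay above all WT libraries, with WT library 4 the lowest of the 8. Yeats4 averaged 4.64 ± 0.05 log2 CPM in cKO and 4.38 ± 0.08 in WT (SD, n = 4 each) and rose by 0.26 ± 0.06 (95% interval 0.13 to 0.39), to 119.8% of WT (limma adjusted p = 0.0207, exact permutation p = 0.0286). Its spread within both groups was no larger than counting error, which is 0.08 per library in each group. The call was lost without cKO library 3 (adjusted p = 0.0601) and without cKO library 4 (adjusted p = 0.0553). By size it was 2411th of the 2990 genes listed as higher, whose median difference was 0.53, and H2afv was 2663rd.

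**Figure D1:**
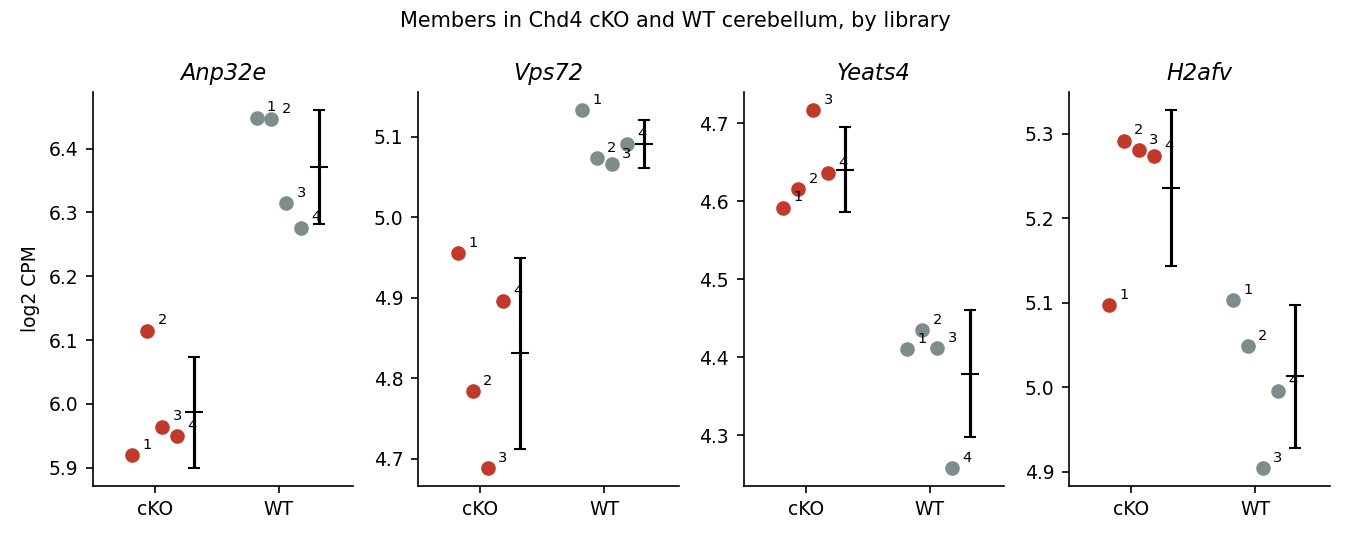
Level of the 4 members listed in the cKO table, in log2 CPM (vertical axis, a separate scale for each gene), in each of the 4 cKO (red) and 4 WT (grey) libraries, numbered as in the labels; black bars are the mean ± SD. Anp32e and Vps72 lie lower in all cKO libraries, Yeats4 lies higher, and for H2afv cKO library 1 (5.10) lies among the WT values.

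These differences depend in part on how libraries are scaled to each other. The median deviation of the listed genes was 0.11 (log2) higher in cKO than in WT. These genes were selected as changed, 2990 higher and 2518 lower, so this median also reflects the list and does not measure scaling alone. With libraries shifted so that this median was equal, every member kept its direction. The differences were then -0.49 for Anp32e, -0.37 for Vps72, 0.15 for Yeats4 and 0.11 for H2afv. Yeats4 no longer passed limma (adjusted p = 0.167), and H2afv again did not pass (adjusted p = 0.567). A difference between a pair of genes in the same library does not depend on that scaling. Log2 CPM is not divided by gene length, so only the change of such a difference between groups is compared here, not its size, and no test was made of it.

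Anp32e minus H2afv, the chaperone against the variant, was 0.82, 0.82, 0.68 and 0.68 in cKO libraries 1 to 4, against 1.35, 1.40, 1.41 and 1.28 in WT libraries 1 to 4. The change of its mean, cKO minus WT, was -0.61, and the groups did not overlap. Vps72 minus Yeats4, a pair of subunits of the same complexes, was 0.36, 0.17, -0.03 and 0.26 in cKO libraries and 0.72, 0.64, 0.65 and 0.83 in WT libraries, a change of the mean of -0.52, again without overlap. Anp32e minus Yeats4 was 1.25 to 1.499 in cKO and 1.90 to 2.04 in WT, and Vps72 minus H2afv was -0.59 to -0.14 in cKO and 0.02 to 0.16 in WT, both without overlap. This separation follows largely from how the genes were listed, since subtracting a gene listed as higher from a gene listed as lower adds their differences: over all such pairs of listed genes, 94.0% did not overlap between groups. Pairs of members with the same direction overlapped between groups. Anp32e minus Vps72 was 0.96 to 1.33 in cKO and 1.19 to 1.37 in WT, and Yeats4 minus H2afv was -0.68 to -0.51 in cKO and -0.74 to -0.49 in WT.

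**Figure D2:**
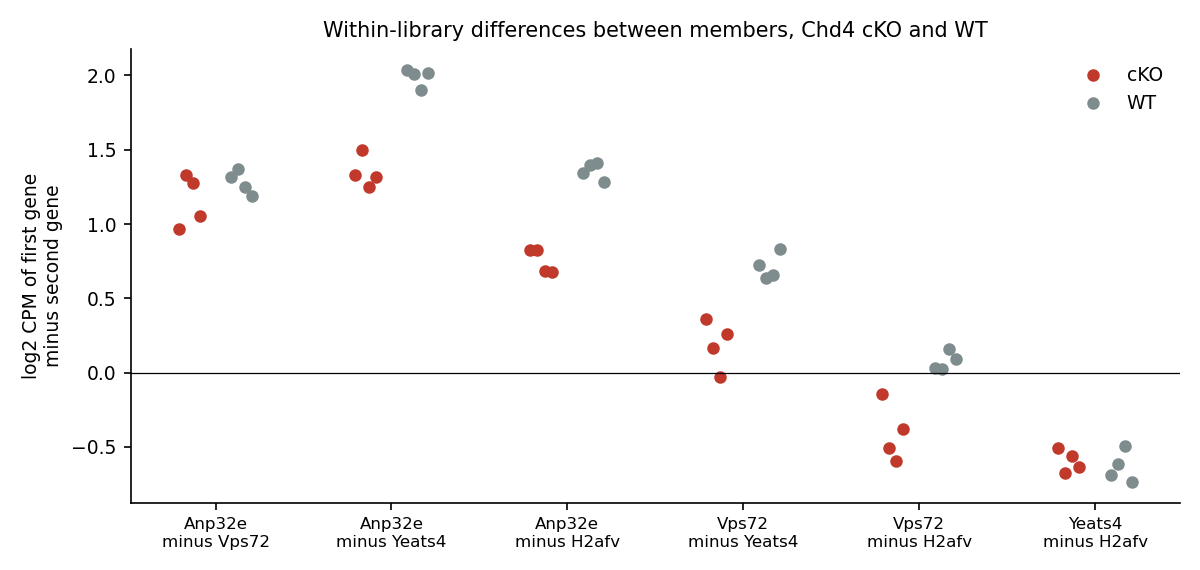
Difference in log2 CPM between a pair of members within each library (vertical axis), for all pairs of the 4 members listed in the cKO table, in cKO (red) and WT (grey) libraries, 1 point per library. The 4 pairs that join a member listed as lower and a member listed as higher do not overlap between groups, as 94.0% of all such pairs of listed genes do not; for Anp32e minus H2afv the values are 0.68 to 0.82 in cKO and 1.28 to 1.41 in WT.

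Beyond the members, 49 other genes of the H2A.Z machinery and its relatives were looked up in 8 lists, and 8 of them were listed in the cKO table, 4 higher and 4 lower, of which 4 rose and 3 fell by limma. With the members this made 12 of 55 genes, 6 higher and 6 lower. The 8 are 16.3% of the 49 genes, near the 20.3% of all features tested that were listed in either direction. The 12 are 21.8% of the 55. The members were taken from the gene tables, so that share cannot be set against the background. Of the 9 SRCAP genes only Vps72 and Yeats4 were listed, and Srcap itself was not. Of the 19 TIP60-EP400 genes 4 were listed: Vps72, Yeats4, Morf4l1 and Brd8. Morf4l1, a chromodomain subunit with related copies in the genome that make its read count uncertain, rose by 0.31 ± 0.07 (limma adjusted p = 0.0298), with 4.54 ± 0.12 log2 CPM in cKO and 4.23 ± 0.09 in WT. Brd8, a bromodomain subunit, differed by -0.20 ± 0.06 and did not pass limma (adjusted p = 0.0553). Dmap1 and Kat5 were not listed in the cKO table.

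Among the 15 genes of INO80, a remodeller linked to H2A.Z removal in yeast, only Ino80c was listed, and it rose by 0.56 ± 0.09 (4.81 ± 0.11 log2 CPM in cKO and 4.25 ± 0.15 in WT, limma adjusted p = 0.00449). Pwwp2b, whose protein is an H2A.Z reader related to PWWP2A, was the only listed gene of 3 readers. It held 4.25 ± 0.18 log2 CPM in cKO and 2.78 ± 0.17 in WT and rose by 1.47 ± 0.11 (limma adjusted p = 9e-05), the largest difference among the 12. The histone chaperone gene Nap1l1, which also has related copies, rose by 0.26 ± 0.04 (adjusted p = 0.00569), so 1 chaperone gene of the 3 in its list rose while Anp32e fell. None of the 4 other H2A variant genes was listed.

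Of 9 paralogs of members, 3 were listed, all as lower, where 9.29% of all features were listed as lower. All 3 also fell by limma, as did 1365 of the 5508 listed genes. So few genes show no pattern of the paralogs. They were Anp32b, a relative of Anp32e (-0.35 ± 0.06, adjusted p = 0.00696), Kat6b, an acetyltransferase of the same family as Kat5 (-0.27 ± 0.06, adjusted p = 0.0239), and Mllt3, a YEATS-domain gene like Yeats4 (-0.28 ± 0.05, adjusted p = 0.00987). Anp32b and Anp32e both fell, while Mllt3 fell and Yeats4 rose. No paralog was listed in the rotarod table.

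**Figure D3:**
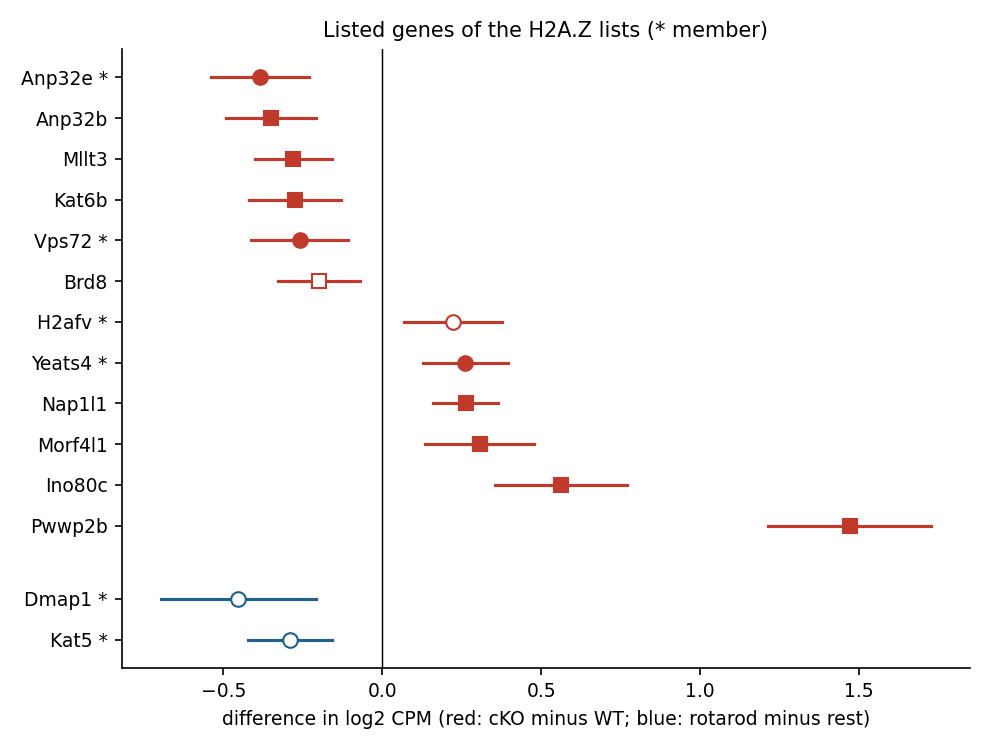
Difference in log2 CPM (horizontal axis) with its 95% interval from limma for every listed gene of the 8 lists, cKO minus WT in red above and rotarod minus rest in blue below; circles and asterisks mark members, and filled symbols passed limma. Lower and higher genes are both present in cKO, Pwwp2b stands farthest from 0 (1.47), and neither rotarod symbol is filled.

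Marker genes of several cell types moved in the same comparison. All listed markers of Purkinje cells (7 of 8 markers listed), inhibitory interneurons (5 of 6), astrocytes and Bergmann glia (4 of 7), oligodendrocytes (5 of 8) and vascular cells (4 of 6) were lower in cKO in the authors' deposited table, of which 4, 4, 2, 2 and 4 passed limma. Only markers that the authors' test listed on these same libraries were summed. Where all of them were listed as lower, lower sums in cKO largely follow from that selection. Itpr1 (12.11 log2 CPM in WT) weighs most in the Purkinje cell sum and Mbp (12.09 in WT) in that of oligodendrocytes. The listed Purkinje cell markers summed to 6758 to 7258 CPM in cKO libraries and 7954 to 8428 CPM in WT libraries. Those of interneurons summed to 830.3 to 924.0 CPM in cKO and 967.4 to 1080.4 CPM in WT. Those of astrocytes and Bergmann glia summed to 3086 to 3359 CPM in cKO and 3601 to 3775 CPM in WT. For oligodendrocytes the sums were 3919 to 4160 CPM in cKO and 3985 to 5382 CPM in WT, which overlap, and for vascular cells 76.8 to 89.2 CPM in cKO and 98.5 to 122.8 CPM in WT. Granule neuron markers, the main cell type, were listed in both directions (3 higher and 4 lower of 10), and 3 and 3 passed limma. They summed to 3811 to 3921 CPM in cKO and 3962 to 4278 in WT. Cbln3, a lower marker, weighs most in that sum (9.94 log2 CPM in cKO and 10.52 in WT). Calb2, 1 of the 3 higher markers, held 9.69 log2 CPM in cKO and 8.73 in WT. Microglia had 1 listed marker of 6, Ctss, at 15.4 to 19.4 CPM in cKO and 11.1 to 16.7 in WT. Dividing cells had 3 of 6 (2 higher and 1 lower, 1 past limma), summing to 7.9 to 9.7 CPM in cKO and 8.1 to 10.8 in WT. Most of that sum was Mcm2, the lower marker (2.84 log2 CPM in cKO and 3.14 in WT). Cdk1 and Birc5, the higher markers, were at low values (means of -0.38 and -0.37 log2 CPM in cKO, -1.32 and -1.365 in WT). No listed marker was at 0, and the listed granule and Purkinje markers, high in every library, fit the labelled tissue. The part of these markers in the members' differences was not tested.

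The comparison of rotarod training with rest asks which genes respond to motor activity, and the members listed in it were Dmap1 and Kat5, subunits of TIP60-EP400. Both were listed as lower after training, as were 1.31% of about 26900 features. Neither passed limma, which 0.621% of features did. Their unadjusted limma p was under 0.05 (0.00247 for Dmap1 and 0.00089 for Kat5), as was that of 98.7% of the 908 genes listed, which were selected by the authors' test on the same libraries. Libraries are called here by the number of their column, since the labels do not tie columns to samples within a group.

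Dmap1 (ENSMUSG00000009640) encodes a subunit that SRCAP and TIP60-EP400 share. It held 4.16, 4.03, 3.78 and 4.22 log2 CPM in rotarod libraries 3, 4, 7 and 8, from 211 to 306 reads, and 4.38, 4.48, 4.52 and 4.63 log2 CPM in rest libraries 1, 2, 5 and 6, from 314 to 347 reads. Every rotarod library lay below every rest library, and rotarod library 7 was the lowest. Such separation was found for 84.9% of the 908 listed genes. The means were 4.05 ± 0.20 log2 CPM after rotarod and 4.50 ± 0.10 at rest (SD, n = 4 each). The difference was -0.45 ± 0.11, or 73.0% of the rest level (95% interval -0.70 to -0.21, limma adjusted p = 0.14, exact permutation p = 0.0286). In the authors' deposited table the log2 fold change was -0.41 with an adjusted p of 0.00845. The rotarod SD of 0.20 exceeded the 0.09 that counting error gives.

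Kat5 (ENSMUSG00000024926) encodes TIP60, the acetyltransferase that gives its complex its name and acetylates H2A, H2A.Z and H4. It held 5.31, 5.25, 5.28 and 5.23 log2 CPM in rotarod libraries 3, 4, 7 and 8, from 597 to 664 reads, and 5.57, 5.50, 5.55 and 5.61 log2 CPM in rest libraries 1, 2, 5 and 6, from 644 to 792 reads. The groups did not overlap and lay 0.19 apart at their nearest libraries. Means of 5.27 ± 0.04 log2 CPM after rotarod and 5.56 ± 0.05 at rest (SD, n = 4 each) gave a difference of -0.29 ± 0.06, or 81.8% of the rest level (95% interval -0.42 to -0.16, limma adjusted p = 0.087, exact permutation p = 0.0286). Its spread within groups was below the counting error of 0.06 per library. The authors' deposited table gave a log2 fold change of -0.27 and an adjusted p of 0.0124. Among the 353 genes listed as lower, with a median difference of -0.46, Kat5 ranked 332nd by size and Dmap1 179th.

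**Figure D4:**
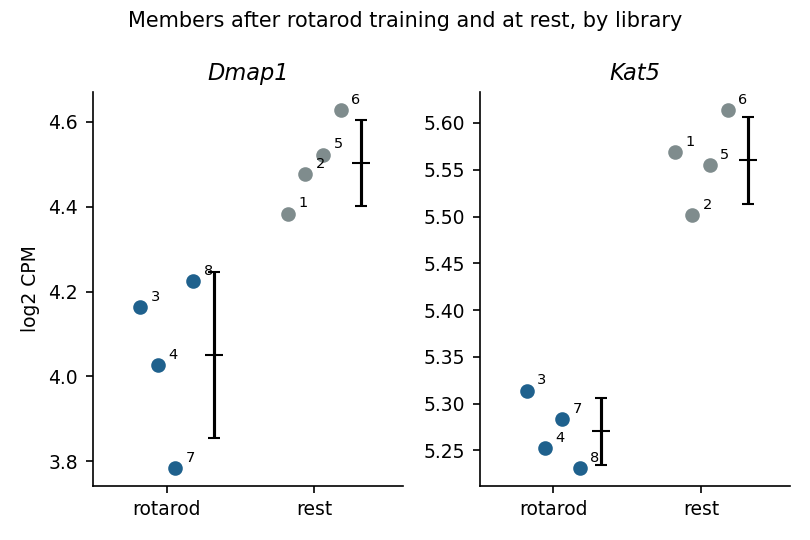
Level of Dmap1 and Kat5 in log2 CPM (vertical axis, a separate scale for each gene) in the 4 rotarod (blue) and 4 rest (grey) libraries, numbered by column; black bars are the mean ± SD. All rotarod libraries lie below all rest libraries, and Dmap1 in rotarod library 7 (3.78) is the lowest of its group.

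The same centring shifted values more in this comparison. The median deviation of listed genes was 0.21 higher after rotarod than at rest. With it made equal, both members passed limma, at -0.67 for Dmap1 (adjusted p = 0.0293) and -0.50 for Kat5 (adjusted p = 0.00994). The table lists 555 genes as higher and 353 as lower, so this shift also reflects the list, and it lowers every rotarod value against rest. Dmap1 minus Kat5 within a library was -1.50 to -1.01 after rotarod and -1.19 to -0.99 at rest, so the difference between the genes overlapped between groups. No other gene of the 55 in the lists was listed. The listed markers there were 1 of 10 for granule neurons (Cbln1, -0.42), 1 of 7 for astrocytes and Bergmann glia (Sox9, -0.43), 1 of 6 for vascular cells (Flt1, 0.38) and 1 of 6 for dividing cells (Mcm2, -0.44), and none of these passed limma. Cbln1 held 1064 to 1306 CPM after rotarod and 1440 to 1769 CPM at rest, and Sox9 43.0 to 46.7 CPM after rotarod and 54.7 to 66.2 CPM at rest. Flt1 held 53.1 to 67.7 CPM after rotarod and 37.3 to 57.5 CPM at rest, and Mcm2 6.6 to 7.8 CPM after rotarod and 8.1 to 10.9 CPM at rest. Their part in the members' differences was not tested.

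**Figure D5:**
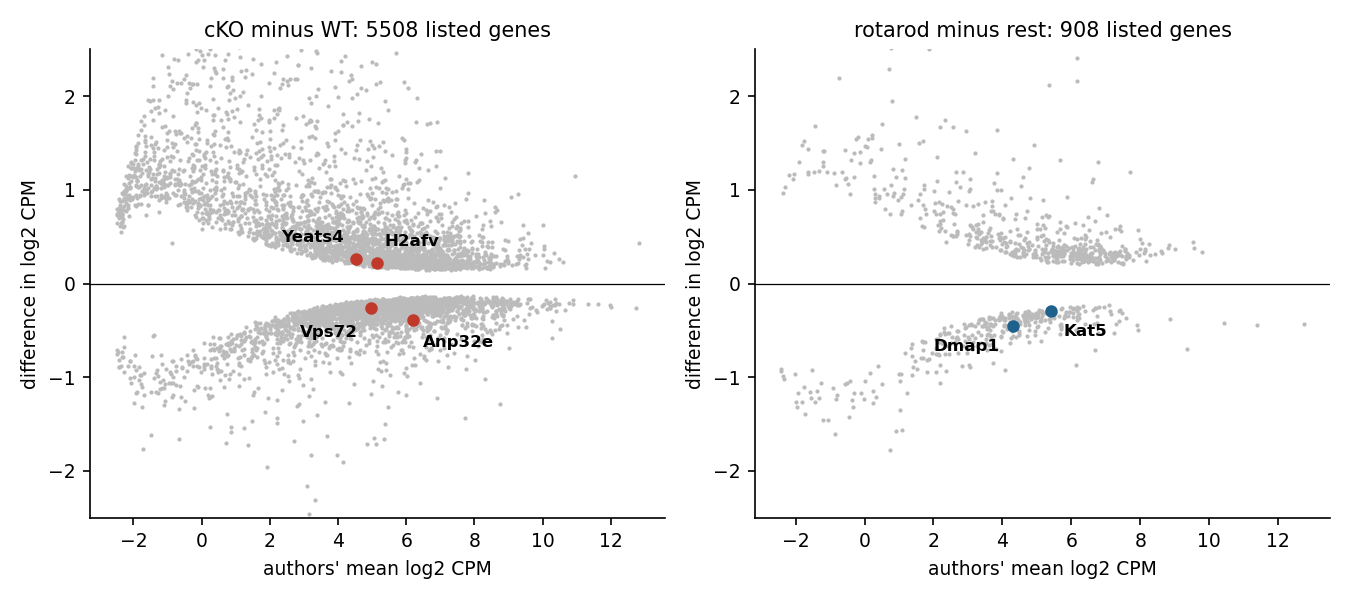
Difference in log2 CPM (vertical axis) against the authors' mean log2 CPM, which is not divided by gene length (horizontal axis), for the 5508 genes of the cKO table (left, members in red) and the 908 of the rotarod table (right, members in blue); 101 and 8 genes lie beyond the plotted range of 2.5. The empty band around 0 arises because only genes that passed the authors' test are listed, and Yeats4 (0.26), H2afv (0.22) and Kat5 (-0.29) lie near its edge.

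No member was listed in both messenger RNA tables, which does not show that a member of one table was unchanged in the other. The 2 Sync-TRAP tables, of ribosome-bound RNA at postnatal day 12, 6 days after electroporation, list 0.147% of features (cKO against WT) and 0.195% (pull-down against input), and no member or other H2A.Z machinery gene of the lists was among them. Of the cell type markers, the Purkinje cell gene Itpr1 was listed in the Sync-TRAP cKO table, with a log2 fold change of -1.20 and an adjusted p of 0.0180 in the authors' deposited table. These tables hold 38 and 51 genes in all.

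As a description of patterns, Pearson's r of log2 CPM over the 8 libraries of a table was computed between each member and the listed genes of at least median abundance, leaving out predicted genes. Such r is carried largely by the difference between groups, which selected these genes. Anp32e was most like Tada3, an adaptor of histone acetyltransferase complexes (r = 0.997), the Mediator kinase gene Cdk19 (0.990) and the small GTPase gene Arl3 (0.981). Closest to Vps72 were Kalrn, a guanine nucleotide exchange factor of synapses (r = 0.979), Whrn (0.975) and the kinase gene Camk2a (0.974). For Yeats4 these were Nrip3 (r = 0.981), Ilf2 (0.980) and the Elongator subunit gene Elp5 (0.978), and for H2afv the coatomer gene Copb2 (r = 0.995), the phosphatase gene Ppm1a (0.980) and the helicase gene Ddx1 (0.980). In the rotarod table Dmap1 was nearest to the polyadenylation factor gene Cpsf4 (r = 0.974), Bbs4 (0.949) and Abhd10 (0.946), and Kat5 to Selo (r = 0.986), Saal1 (0.977) and Phf20 (0.974). No member was among the 3 nearest genes of another.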

How the data were processed

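RNA was taken from whole cerebella with Trizol, primed with oligo-dT and sequenced on an Illumina HiSeq, per the labels' protocols. The submitters' processing notes name Bowtie, edgeR and build mm9, without versions; how reads were counted is not given in the sources used here. Each deposited table gives the authors' log2 CPM of every library (a prior count is visible in the lowest values), log2 fold changes, p-values and adjusted p-values, for genes with an adjusted p under 0.05. Repeated lines (49 and 5) were removed. Low values (up to 20 reads) were whole multiples of 1 read, within 0.1 read, in 100% of cases, which gave reads and effective depth. Count models were not run. Limma 3.58.1 (R 4.3.3) was fitted to the listed genes, with no added pseudocount, Benjamini-Hochberg adjusted over about 27100 and 26900 features. Its variance prior rests on called genes alone. The fit was first run on simulated data in which only 200 genes were changed, so that run cannot check a prior from called genes. Counting error covers read sampling only. The labels call replicates separate samples and say no more of their origin, so p-values measure the spread between samples, which may be technical. The 12 library columns of the Sync-TRAP tables were not used. Named genes are the members, Chd4, listed genes of the lists and the 3 nearest genes of each member. Members and lists were chosen with earlier results of these data known. Alternatives were other variance priors, pseudocounts of 1 and 5 CPM, an abundance filter, centring, a replicate block, library number as a term and each library left out. Promoter sequences are RefSeq's. Regions on mm9 were not joined.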

Additional observations from a re-analysis of the deposited data

Results flagged for a closer look

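In 14 combinations of gene and group, 3 held a library that stood apart from the other 3 of its group by more than Dixon's critical value, and chance flags about 1 in 20 such groups. H2afv was 5.10 log2 CPM in cKO library 1, against 5.27 to 5.29 in the other cKO libraries. Chd4 was 8.06 log2 CPM in the same cKO library 1, the highest of its group, where the others held 7.90. Yeats4 was 4.26 log2 CPM in WT library 4, the lowest of its group. In cKO library 1, Vps72 (4.96 log2 CPM) and Yeats4 (4.59 log2 CPM) were also the cKO values nearest to WT, and Anp32e (5.92 log2 CPM) was the farthest from WT. Over the 2754 listed genes of at least median abundance, the median position of a cKO library, as a percent of the mean difference between cKO and WT, was 96.5% for library 1 and 101.1%, 102.0% and 100.5% for libraries 2 to 4.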

How the results depend on the processing

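Over 86 alternative values of the members' differences, none reversed, 67 kept their call, 12 no longer passed limma and 7 newly passed it. Kept calls include H2afv, Dmap1 and Kat5 still not passing. The 12 lost calls were of Vps72 and Yeats4. Vps72 still passed in 1 of 8 fits that left out 1 library and in 6 of 7 other alternatives. Yeats4 still passed in 6 of 8 and 4 of 6, and Anp32e in all. A trend in the variance prior let H2afv (0.22) and Kat5 (-0.29) pass, as did log2(CPM + 5) (H2afv 0.20, Kat5 -0.26). Centring the libraries on the listed genes, which were selected as changed, ended the call of Yeats4 (0.15) and let Dmap1 (-0.67) and Kat5 (-0.50) pass. Of the members in the cKO table, 3 passed limma, and 1 at an adjusted p under 0.01; of those in the rotarod table, 0 passed, against 1 with the trend, 1 with log2(CPM + 5), 2 after centring and 2 by the authors' deposited adjusted p. With the title number as a replicate block, Anp32e alone passed (1 member), and Vps72 (-0.26, adjusted p = 0.0588) and Yeats4 (0.26, adjusted p = 0.061) did not. Same-numbered cKO and WT libraries had deviations that correlated at r = 0.0983, 0.16, 0.131 and 0.0846. These were not all over 0.1, so the numbers were not taken as pairs. That cut-off does not settle whether the libraries were paired. The cKO libraries 1, 2 and 3 correlated best with the WT library of their own number, and cKO library 4 with WT library 3. Leaving out 1 library gave -0.43 to -0.36 for Anp32e, -0.30 to -0.21 for Vps72, 0.22 to 0.28 for Yeats4, 0.19 to 0.27 for H2afv, -0.51 to -0.36 for Dmap1 and -0.31 to -0.27 for Kat5, with 1 to 4 members past limma in the cKO table (1 without cKO library 3 and 1 without cKO library 4) and 0 in the rotarod table. The abundance filter leaves out Yeats4 and Dmap1. Splitting rotarod columns 1 to 4 from 5 to 8, a term chosen after seeing the data, changed no call.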
